A study of Mus musculus with 18 samples.

Results

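The fibroblast growth factor (FGF) and extracellular signal-regulated kinase (ERK) pathway was followed in 9 genes through the polysome gradients of wild-type (WT) and Dgcr8 knockout (KO) mouse embryonic stem cells (ESCs). They are the ligand Fgf4, the receptors Fgfr1 and Fgfr2, the feedback inhibitors Spry2, Spry4 and Dusp6, and the transcription factors Etv4, Etv5 and Egr1. Each was found in the count table through its Ensembl identifier, so that the 9 genes stand among 51467. WT cells were V6.5 ESCs, and the KO cells were a single ESC line made earlier that lacks DGCR8, a partner of the enzyme Drosha in the processing of microRNAs (miRNAs), and therefore lacks canonical miRNAs. The medium of both genotypes was Knockout DMEM with LIF, serum (15%) and 2i, that is, the MEK inhibitor PD0325901 and the GSK3 inhibitor CHIR99021, and received 100 ug/ml cycloheximide for 2 min before lysis. MEK is the kinase that activates ERK, so that every group carried a block of the pathway above ERK. For each genotype, 3 sucrose gradients were each collected as monosomes, low polysomes (2 to 4 ribosomes) and high polysomes (4 or more ribosomes), which gave 6 groups of 3 libraries of 3′ end reads. Replicate numbers 1 to 3 name the gradients below, and nothing in the labels says whether they came from separate cultures, so that p-values measure the spread between these gradients. Each genotype was a single cell line, so differences between the lines and differences due to the genotype cannot be told apart.

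FGF ligands bind receptor tyrosine kinases at the cell surface, and adaptor proteins pass the signal to RAS, RAF, MEK and ERK. In ESCs, FGF4 is the main autocrine ligand of this cascade, and its activity primes cells to leave the naive state, which is why MEK inhibition is used to hold them there. ERK activity in turn induces the Etv4, Etv5 and Egr1 transcription factors and the inhibitors Spry2, Spry4 and Dusp6, which dampen the cascade and are often read as its output.

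Library totals ran from 1151649 to 4984833 counts, lowest in WT monosomes (1151649 to 1578231) and highest in KO high polysomes (3352066 to 4984833). Levels are given as CPM, the counts of a gene relative to the size of its library after scaling with TMM factors. The reads come from 3′ ends, so a count does not grow with transcript length. Whether genes differ in the share of their reads that align uniquely was not tested. An order of genes by CPM is therefore an order of their counts. As a check on the genotypes, Dgcr8 was read first: it kept 38 to 183 reads in each KO library, with a log2 change (KO against WT) of -1.01 in high polysomes (adjusted p = 0.000276) and of -0.56 in monosomes. Reads at the 3′ end need not fall within the deleted part, so these values do not test the deletion. The 9 naive ESC markers summed to between 2930 and 4617 CPM in each library. In high polysomes, these sums were 4496 to 4617 CPM in WT and 3556 to 3789 CPM in KO libraries, while the genotypes overlapped in monosomes and low polysomes. The 6 primed epiblast markers summed to between 131.5 and 223.4 CPM. Of the primed markers, Pou3f1 held 9.17 to 28.5 CPM in WT and 1.38 to 4.04 CPM in KO libraries, and Lef1 0.670 to 6.24 and 6.21 to 11.6 CPM. Of the primitive endoderm markers, Gata6 stayed under 1 CPM in every library and Gata4 and Sox17 reached at most 3.20 and 2.55 CPM, whereas Sparc was abundant (820 to 3299 CPM in WT and 993 to 7393 CPM in KO libraries). The 7 endoderm markers summed to 2906 to 3308 CPM in WT and 5674 to 7401 CPM in KO high polysomes, and the part of these markers in the results was not tested. The 6 fibroblast markers summed to 9.725 to 12.7 CPM in WT and 1.94 to 7.835 CPM in KO monosomes. In high polysomes they summed to 7.01 to 12.1 CPM in WT and 2.76 to 5.29 CPM in KO libraries. Low polysomes held 8.46 to 12.3 CPM of them in WT and 2.88 to 21.5 CPM in KO libraries. Dcn was at 0 in all WT libraries, and the part of the fibroblast markers in the results was not tested. One library stood apart: the KO low polysome library of gradient 1 held 2000 reads of the embryonic globin genes Hbb-y, Hbb-bh1 and Hba-x against at most 221 in any other, and 41 genes with 20 or more reads in it exceeded both of its replicates by over 4 times. It also held the highest Fgfr2 and Egr1 counts, and low polysome results of the members are therefore given with and without it. For other genes, calls that were lost without it are named.

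The filter of 3 CPM in at least 3 libraries left 12851 genes to test, among them 8 of the 9 members, all but Egr1. Spry4 passed through 3 KO libraries and 0 WT libraries, so its difference between genotypes is in part a condition of being tested. Changes are log2 fold changes from limma-voom, with p-values adjusted by Benjamini-Hochberg over those 12851 genes. To be called, a gene needed a log2 change beyond 1 either way and an adjusted p below 0.05. In bulk RNA of a fraction, fewer cells holding a transcript and less of it per cell cannot be told apart, and CPM within a fraction gives no amount of RNA in the fraction.

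In WT high polysomes, Fgf4 was the most abundant at 610 ± 36.1 CPM (mean ± SD, n = 3), followed by Fgfr1 at 238 ± 8.59, Etv5 at 135.5 ± 26.3, Spry2 at 127 ± 15.2 and Etv4 at 24.7 ± 3.27 CPM. Dusp6 at 6.67 ± 1.33, Fgfr2 at 3.18 ± 2.36, Egr1 at 1.16 ± 0.436 and Spry4 at 0.463 ± 0.152 CPM made up the lower end. Neighbours in this order did not overlap between libraries, except Etv5 with Spry2 and Fgfr2 with Egr1. The same order was seen in WT monosomes down to Dusp6, with Spry2 ahead of Etv5 there and overlapping Fgfr1. In KO high polysomes, Spry2 stood at 23.9 ± 6.03 CPM and overlapped Etv4 at 20.97 ± 3.36 CPM, well below Etv5 at 129.5 ± 19.4 CPM.

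**Figure D1:**
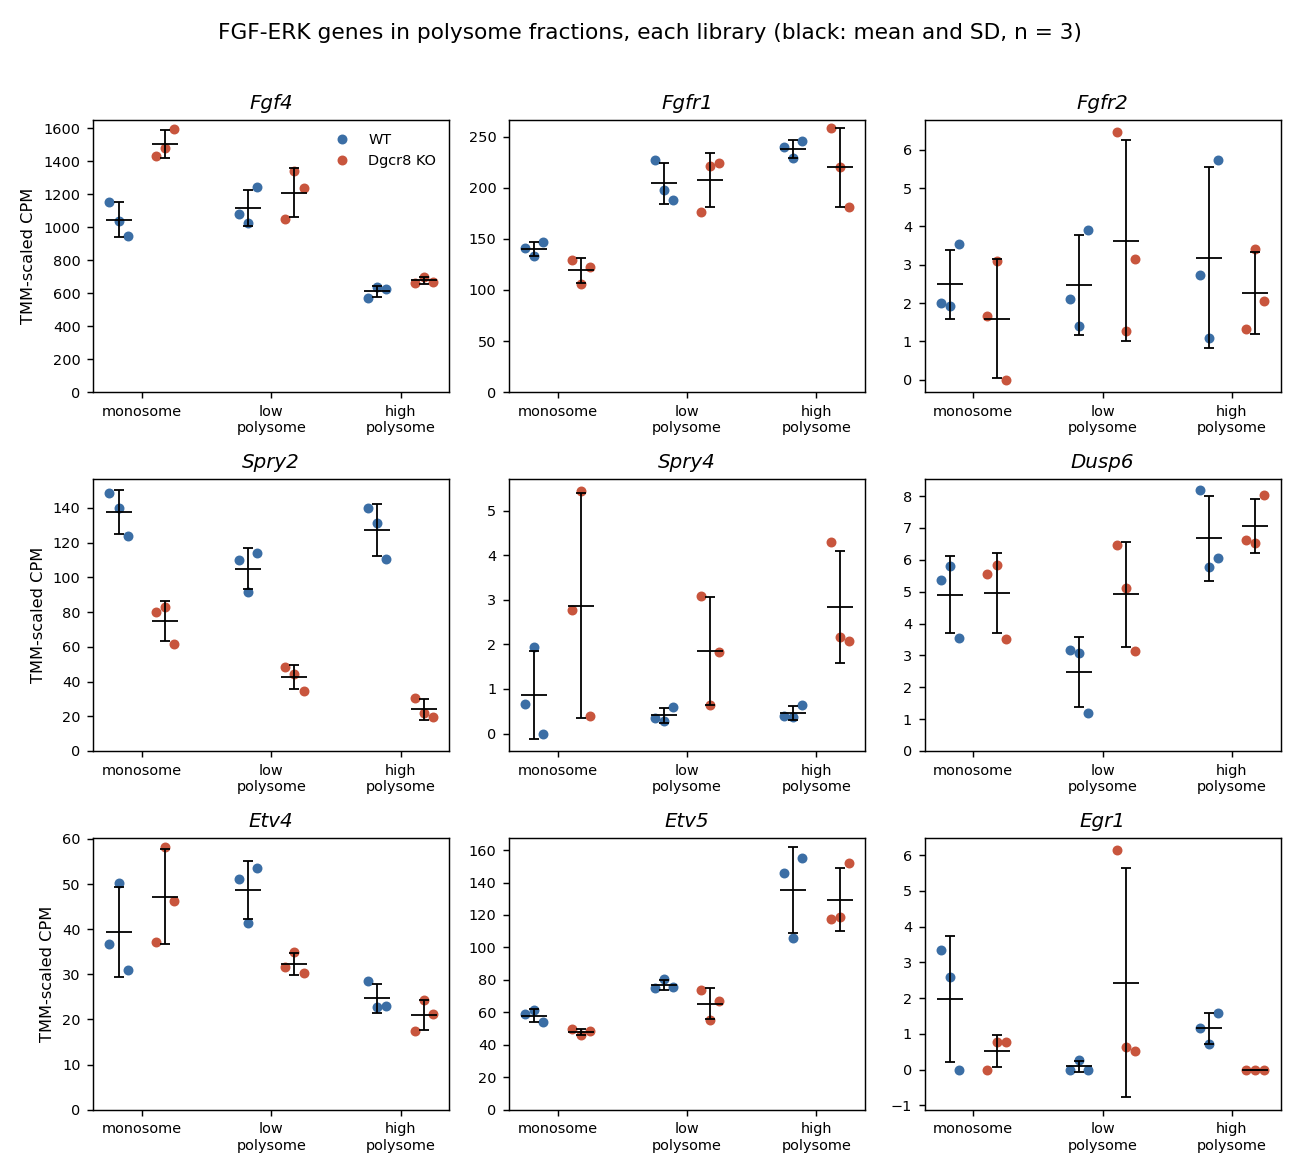
TMM-scaled CPM of the 9 genes in each of the 18 libraries, by fraction on the horizontal axis and by genotype (blue, WT; red, Dgcr8 KO), with the mean and SD of 3 libraries in black. The panels have separate vertical scales: Spry2 was lower in KO libraries in all 3 fractions and lowest in high polysomes (19.3 to 30.8 CPM against 111 to 140 in WT), while Etv5 was highest in high polysomes in both genotypes.

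Fgf4, the ligand (ENSMUSG00000050917, GRCm38 chromosome 7, 144847367 to 144865243, plus strand), was the most abundant of the 9 genes in every group, and its lowest library held 569 CPM. In monosomes, gradients 1 to 3 held 1154, 1036 and 945 CPM in WT and 1433, 1481 and 1597 CPM in KO cells. All KO monosome libraries were above all WT ones, with a log2 change of 0.53 (SE 0.11, adjusted p = 0.000177), which is under the fold threshold. In low polysomes, WT libraries held 1080, 1027 and 1241 CPM and KO libraries 1051, 1338 and 1239 CPM, which overlapped (log2 change 0.11, 95% interval -0.10 to 0.33, and 0.21 without KO gradient 1 of this fraction). In high polysomes, the values were 569, 638 and 623 CPM in WT and 663, 699 and 669 CPM in KO cells. The KO values were the higher ones, yet the log2 change was 0.15 (95% interval -0.07 to 0.37, adjusted p = 0.239).

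Because the KO cells lack miRNAs, the members' 3′ UTRs were searched for the seed match of the ESC-specific family of miRNAs, the most abundant miRNAs of these cells. RefSeq sequences (GRCm38.p6) were found for 5 of 6 family members looked for. They are shown 5′ to 3′ with bases 2 to 8, the seed, in capitals, because all 5 share 1 seed, AAGUGCU, and differ outside it.
miR-291a-3p: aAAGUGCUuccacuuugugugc
miR-294-3p: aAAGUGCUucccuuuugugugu
miR-295-3p: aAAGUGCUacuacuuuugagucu
miR-302b-3p: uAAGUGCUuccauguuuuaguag
miR-302d-3p: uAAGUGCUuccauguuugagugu
The first 3 lie close together on chromosome 7 (chr7:3218968-3218989, chr7:3220691-3220712 and chr7:3220815-3220837, plus strand) and the others on chromosome 3 (chr3:127545275-127545297 and chr3:127545665-127545687, plus strand).

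The letters searched on the transcript strand were AGCACTT (7mer-m8, which pairs with the whole seed), GCACTTA (7mer-A1) and AGCACTTA, the 8mer in which both overlap. Of the 9 members, Fgf4 held a match, a single 7mer-m8 at bases 52 to 58 of a 3′ UTR of 2302 bases (chr7:144862983-144863009 with 10 flanking bases on each side, plus strand, GRCm38). It is printed with the match in capitals.
Fgf4 site: cctcaggaggAGCACTTtctctcgatg
Among 11676 genes tested with an annotated 3′ UTR, whose median length was 1010 bases, 16.2% held a 7mer-m8 or an 8mer and 19.3% any of the 3 forms, so that 1 gene in 9 is near the background. The 3′ UTR of Spry2 (856 bases), the member with the largest change, held none of these letters, nor did those of Fgfr1 (1797), Etv5 (2161), Etv4 (624), Dusp6 (1189), Fgfr2 (250), Spry4 (3559) and Egr1 (1216 bases). A match is a description of the sequence and was not tested as a site.

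Fgfr1, the principal FGF receptor of ESCs (ENSMUSG00000031565, chromosome 8, 25513654 to 25575718, plus strand), showed no difference past the threshold in any fraction. Its WT monosome libraries held 141, 134 and 147 CPM and the KO ones 129.5, 106 and 123 CPM. The KO values lay below the WT ones, with a log2 change of -0.24 (95% interval -0.53 to 0.05, adjusted p = 0.192). In low polysomes, WT libraries held 227, 198 and 188 CPM and KO libraries 177, 221 and 225 CPM, with a log2 change of 0.02 (95% interval -0.23 to 0.27) or 0.13 without KO gradient 1 of this fraction. In high polysomes, they held 239.5, 229 and 246 CPM in WT and 258.5, 220 and 181 CPM in KO cells (log2 change -0.13, 95% interval -0.39 to 0.12). In both polysome fractions the genotypes overlapped.

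Fgfr2, a second receptor of the family (ENSMUSG00000030849, chromosome 7, 130162451 to 133123350, minus strand), was at the limit of detection. It had 3, 3 and 4 reads in WT monosomes and 3, 8 and 0 in KO monosomes. Low polysomes held 6, 5 and 13 reads in WT and 21, 4 and 12 in KO cells, and the 21 reads are those of the library with globin reads. High polysomes held 7, 3 and 18 reads in WT and 4, 11 and 9 in KO cells. The genotypes overlapped in each fraction, and the 95% intervals of the log2 change were wide (from -3.17 to 0.42 for monosomes, -0.76 to 1.57 for low and -1.58 to 0.90 for high polysomes). In low polysomes the log2 change was 0.41 with the library of KO gradient 1 and -0.10 without it, so no difference was detectable at this depth.

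Spry2, a Sprouty protein that restrains signalling between the receptor and ERK (ENSMUSG00000022114, chromosome 14, 105891947 to 105896819, minus strand), fell in the low and high polysomes of KO cells. In monosomes, WT libraries held 149, 140 and 124 CPM and KO libraries 80.05, 83.1 and 61.9 CPM. Those of low polysomes held 110, 91.5 and 114 CPM in WT and 48.25, 44.5 and 34.7 CPM in KO cells. High polysomes held 140, 131.5 and 110.5 CPM in WT and 30.75, 21.75 and 19.3 CPM in KO cells. Every KO library lay below every WT library of its fraction. The log2 change in monosomes was -0.89 (SE 0.16, adjusted p = 1.61e-05), under the fold threshold. For low polysomes it was -1.32 (SE 0.15, adjusted p = 1.92e-09), and for high polysomes -2.45 (SE 0.17, adjusted p = 1.5e-15), a level 5.46-fold lower in KO cells. Without the low polysome library of KO gradient 1, the low polysome value was -1.42 (adjusted p = 1.64e-09). Of all 12851 genes tested, 318 had a lower log2 change than Spry2 in high polysomes.

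Spry4, of the same family (ENSMUSG00000024427, chromosome 18, 38586247 to 38601415, minus strand), went the other way at a level near the floor. Its WT libraries held 1, 3 and 0 reads in monosomes and 1, 1 and 2 reads in each of the polysome fractions. The KO libraries held 5, 14 and 1, then 10, 2 and 7, and then 13, 7 and 9 reads. No WT library exceeded the floor of 3 counts, so the fold is given against that floor. In high polysomes, KO cells held 2.85 ± 1.26 CPM, 2.66-fold the mean floor of the WT libraries (1.07 CPM), on 29 reads against 4. Such folds, here and below, set a mean against the floor and leave out the spread between libraries. The fitted log2 change was 2.11 (95% interval 0.555 to 3.66), and its lower end lies below the log2 value of that fold (1.41). The call in high polysomes (adjusted p = 0.0169) was lost without WT gradient 1 (adjusted p = 0.0591) and without WT gradient 2 (0.058). In low polysomes, the adjusted p was 0.0824, and 0.249 without KO gradient 1 of this fraction, and the KO mean was 1.98-fold the WT floor. In monosomes the genotypes overlapped (adjusted p = 0.372).

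Dusp6, the phosphatase that removes the activating phosphates from ERK in the cytoplasm (ENSMUSG00000019960, chromosome 10, 99263231 to 99267489, plus strand), was low in both genotypes. It had 8, 9 and 4 reads in WT monosomes and 10, 15 and 9 in KO monosomes. Low polysomes held 9, 11 and 4 reads in WT and 21, 16 and 12 in KO cells, and high polysomes 21, 16 and 19 in WT and 20, 21 and 35 in KO cells. The mean level in monosomes was 4.90 CPM in WT and 4.97 in KO cells. The means were 2.48 ± 1.11 and 4.91 ± 1.66 CPM for low and 6.67 ± 1.33 and 7.06 ± 0.853 CPM for high polysomes. The genotypes overlapped in each fraction. The largest value, in low polysomes, was a log2 change of 0.97 (SE 0.42, adjusted p = 0.0517), and it was 0.75 (adjusted p = 0.185) without KO gradient 1 of this fraction.

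Etv4 and Etv5 are transcription factors of the PEA3 group that ERK signalling induces, and neither was called in any fraction. Etv4 (ENSMUSG00000017724, chromosome 11, 101769742 to 101785371, minus strand) held 36.8, 50.3 and 30.9 CPM in WT monosomes and 37.2, 58.3 and 46.2 CPM in KO monosomes. In low polysomes, it held 51.1, 41.3 and 53.6 CPM in WT and 31.7, 34.9 and 30.2 CPM in KO cells. All KO low polysome libraries were below all WT ones, with a log2 change of -0.58 (SE 0.16, adjusted p = 0.00285) that did not reach the fold threshold, and of -0.57 (adjusted p = 0.00827) without KO gradient 1 of this fraction. In high polysomes, WT libraries held 28.5, 22.7 and 22.9 CPM and KO libraries 17.5, 24.2 and 21.1 CPM, which overlapped (log2 change -0.23, 95% interval -0.63 to 0.17). The log2 change in monosomes was 0.26 (95% interval -0.14 to 0.66).

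Etv5 (ENSMUSG00000013089, chromosome 16, 22381309 to 22439719, minus strand) held 58.9, 61.3 and 53.9 CPM in WT monosomes and 49.5, 45.8 and 48.6 CPM in KO monosomes. Low polysomes held 75.1, 80.3 and 75.6 CPM in WT and 74.1, 55.4 and 66.7 CPM in KO cells. Both sets of KO values lay below the WT ones, with log2 changes of -0.29 (adjusted p = 0.221) and -0.24 (adjusted p = 0.156) that did not pass the test. Without KO gradient 1 of low polysomes the second was -0.34 (adjusted p = 0.0746). High polysomes held 146, 106 and 155 CPM in WT and 118, 119 and 152 CPM in KO cells, which overlapped, with a log2 change of -0.05 (95% interval -0.32 to 0.22).

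Egr1, an immediate early gene of ERK signalling (ENSMUSG00000038418, chromosome 18, 34859823 to 34864984, plus strand), was not tested, since 1 WT and 1 KO library reached 3 CPM. It had 5, 4 and 0 reads in WT monosomes and 0, 2 and 2 in KO monosomes. Low polysomes held 0, 1 and 0 reads in WT and 20, 2 and 2 in KO cells, where the 20 reads are again those of the library with globin reads. High polysomes held 3, 2 and 5 reads in WT and 0 in each KO library. A count of 0 in the 3 KO high polysome libraries allows up to 0.871 CPM on average, and the WT mean of 1.16 ± 0.436 CPM was 1.33-fold that floor. The WT counts of 3 and 2 are themselves at or under the floor of 3 counts, so this depth does not show a difference.

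**Figure D2:**
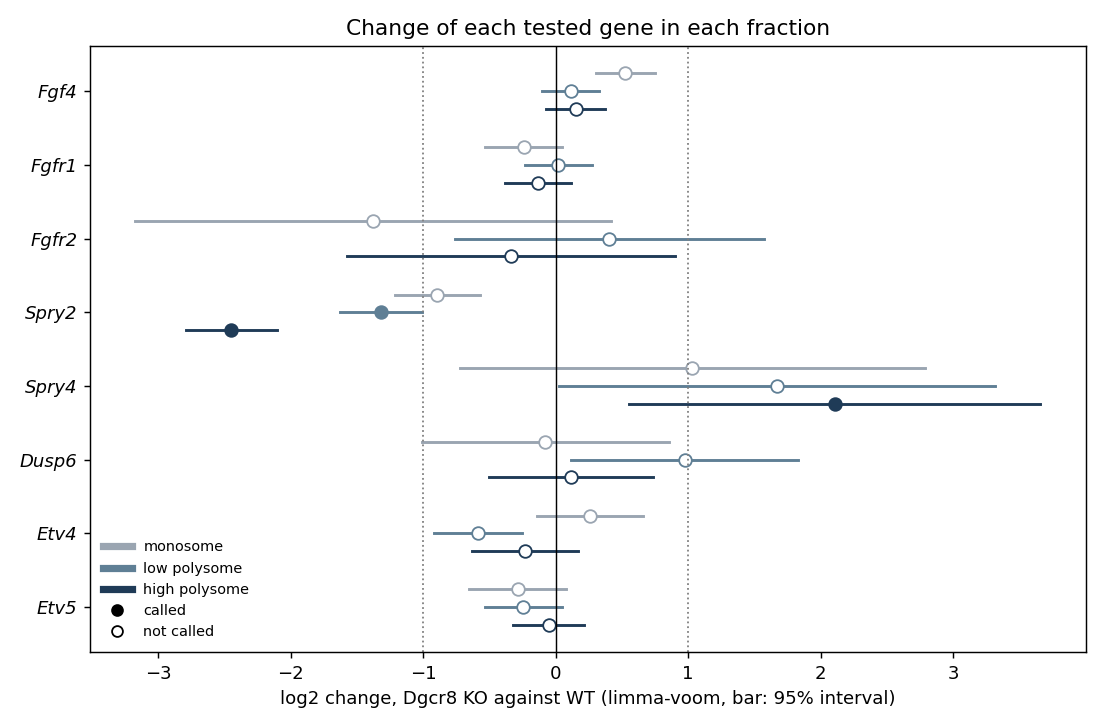
Log2 change of the 8 tested genes in Dgcr8 KO against WT cells (horizontal axis), 1 row per gene, with the 95% interval of the limma-voom fit as a bar and light to dark shades for monosomes, low and high polysomes. Filled points were called and dotted lines mark a log2 change of 1 either way: Spry2 moved from -0.89 through -1.32 to -2.45, and the widest intervals were those of the low-count genes Fgfr2 and Spry4.

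By fraction, limma-voom called 0 of the 8 tested members in monosomes, where the KO side was called higher for 8.43% and lower for 9.63% of all genes. The members Fgf4 and Spry2 had an unadjusted p under 0.05 there, and edgeR and DESeq2 each called 0 as well. In low polysomes, 1 member (Spry2) was called lower and 0 higher, against 13.6% and 11.4% of all genes, and 4 members had an unadjusted p under 0.05. In high polysomes, 1 member (Spry2) was called lower and 1 (Spry4) higher, against 17.9% and 15.1% of all genes. These shares, at 1 member in 8, are near those of all genes. The median log2 change of the 8 members was -0.16 for monosomes, 0.07 for low and -0.09 for high polysomes, beside medians of -0.05, 0.00 and -0.08 over all genes tested. The medians of the members were the same with Spry4 at its fold against the floor.

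To ask how the members were loaded with ribosomes, the high polysome to monosome ratio was taken as the translation level within each gradient. A log2 ratio of 0 means equal CPM in both fractions and not equal amounts of RNA. It lies near the median of all genes (-0.01 in WT and -0.07 in KO cells). The high polysome side and the monosome side are the values above and below 0. In WT cells, Etv5 was called on the high polysome side (log2 ratio 1.19, SE 0.17, adjusted p = 8.09e-08), which makes 1 of 8 members against 10.7% of all genes, and 0 members were called on the monosome side against 19.3%. Below the fold threshold, Fgfr1 stood at 0.76 (adjusted p = 9.71e-06), Fgf4 at -0.78 (adjusted p = 1.97e-07) and Etv4 at -0.69 (adjusted p = 0.00568). Spry2 had similar CPM in both fractions, with a log2 ratio of -0.12 (95% interval -0.42 to 0.17). The related factors Etv5 and Etv4 thus lay on opposite sides of a log2 ratio of 0, and the ratio of each is its own measurement, not a test between them. The coding sequence (CDS) was shortest in Fgf4 (609 bases), followed by Spry4 (903), Spry2 (948) and Dusp6 (1146), and longest in Fgfr2 (2523) and Fgfr1 (2469), with Etv4 (1458) and Etv5 (1533 bases) of like length.

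In KO cells, 3 members were called on the monosome side, Spry2 (-1.68, adjusted p = 8.5e-11), Etv4 (-1.18, adjusted p = 6.05e-07) and Fgf4 (-1.15, adjusted p = 2.87e-12), and 1 on the high polysome side, Etv5 (1.43, adjusted p = 1.13e-10). Of all genes, 25.5% were called on the monosome side and 17.5% on the high polysome side. Fgfr1 stood at 0.87 (adjusted p = 2.65e-07), under the fold threshold.

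The change in translation level, that is, the interaction of genotype and fraction, was called for 1 member, Spry2, on the lower side, where 8.81% of all genes were called, and for 0 members on the higher side, where 6.29% were. Its log2 ratio was -0.09, -0.09 and -0.16 in WT gradients 1 to 3 and -1.36, -1.90 and -1.65 in KO gradients. The WT gradients lay close together and all KO gradients below them, with a change of -1.56 (SE 0.23, 95% interval -2.02 to -1.09, adjusted p = 1.92e-06). Short coding sequences moved toward monosomes across the whole table: the median change was -0.94 in the tenth of genes with the shortest CDS and 0.62 in the tenth with the longest. In the tenth that holds Spry2 (735 to 951 bases, 1173 genes) it was -0.34, and with that median subtracted the change of Spry2 was -1.22 (adjusted p = 0.000246).

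The other members changed by less. For Fgf4, the log2 ratio was -1.02, -0.70 and -0.60 in WT and -1.11, -1.08 and -1.26 in KO gradients. The KO values were the lower ones, and the change was -0.38 (95% interval -0.69 to -0.06, adjusted p = 0.0658). With the gradient as a block the adjusted p was 0.0384, and the change stayed under the fold threshold. With the median of genes of like CDS length subtracted in the same way, the value turned to 0.26 (adjusted p = 0.276). Etv4 had log2 ratios of -0.36, -1.12 and -0.42 in WT and -1.06, -1.24 and -1.10 in KO gradients, which overlapped (change -0.49, adjusted p = 0.203). Fgfr1 (0.11, 95% interval -0.28 to 0.49), Etv5 (0.24, -0.22 to 0.69) and Dusp6 (0.20, -0.92 to 1.31) overlapped as well, and with the CDS-length median subtracted Fgfr1 turned to -0.39 (adjusted p = 0.172). The intervals of Fgfr2 (-1.14 to 3.23) and Spry4 (-1.27 to 3.42) were too wide to place the change at this depth. Over the 8 members the median change was 0.15, beside 0.01 over all genes.

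**Figure D3:**
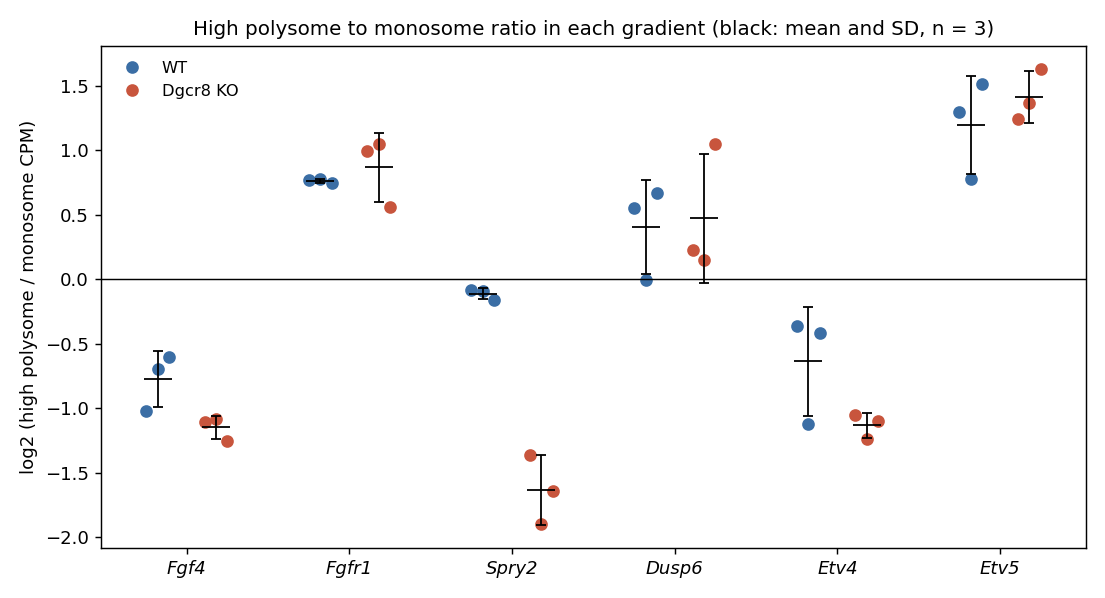
Log2 ratio of high polysome to monosome CPM in each gradient (prior count of 2), for the 6 genes with at least 4 reads in every library, with blue points for WT, red points for Dgcr8 KO gradients and the mean and SD of 3 gradients in black. Spry2 fell from between -0.16 and -0.09 in WT to between -1.90 and -1.36 in KO gradients, while Fgfr1, Dusp6, Etv4 and Etv5 overlapped between genotypes.

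The low polysome to monosome ratio called 0 of 8 members, against 1.23% of all genes on the higher and 3.81% on the lower side, and edgeR called 0 of 8. DESeq2 called 0 of the 5 members for which it gave an adjusted p. Fgf4 and Etv4 had an unadjusted p under 0.05, and the change of Fgf4 was -0.41 (adjusted p = 0.072, or 0.0393 with the gradient as a block). Etv4 had log2 ratios of 0.47, -0.28 and 0.78 in WT and -0.23, -0.73 and -0.60 in KO gradients, with a change of -0.84 (SE 0.26, adjusted p = 0.0256) under the fold threshold. Without WT gradient 2 the change was -1.24 (adjusted p = 0.00399) and was called, while without WT gradient 3 it was -0.63 (adjusted p = 0.198). Without the low polysome library of KO gradient 1 it was -0.83 (adjusted p = 0.04). The change of Spry2 was -0.42 (95% interval -0.87 to 0.02), or -0.52 without that library. Dusp6 had log2 ratios of -0.64, -0.79 and -1.15 in WT and 0.19, -0.16 and -0.13 in KO gradients. Its KO gradients were all above the WT ones, and the change of 1.05 did not pass the test (95% interval -0.22 to 2.32, adjusted p = 0.319). All ratios share the monosome libraries with the monosome comparison.

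To place the members among the rest of the cascade, 93 other genes in 5 lists were counted, of which 92 had a row in the table and 70 were tested. In high polysomes, 19 of the 70 were called lower and 7 higher in KO cells, against the 17.9% and 15.1% of all genes given above. For low polysomes these counts were 12 and 8, against 13.6% and 11.4% of all genes, and 10 and 7 without the KO library of gradient 1. For monosomes they were 11 and 5, against 9.63% and 8.43%. Of the 70 genes, 8 reached the filter level in at least 3 WT but not in 3 KO libraries and 5 the reverse, so that their differences are in part a condition of being tested. Among the genes named below, these are Fgf10, Fgf21, Fgf22, Fgfr3, Fgfr4, Rasa3 and Spry1 (through WT) and Fgf15 (through KO libraries). The change in high polysome to monosome ratio was called lower for 5 and higher for 2. The median log2 change of the 70 genes in high polysomes was -0.21, beside -0.08 over all genes. Changes within a fraction went with CDS length too. In high polysomes, the median log2 change was -1.13 in the tenth of genes with the shortest CDS and 0.655 in the tenth with the longest. These medians were -0.845 and 0.19 in low polysomes and -0.13 and 0.02 in monosomes. Changes of listed genes by fraction are given without subtracting them, and the part of CDS length in these changes was not tested.

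Of the 17 other FGF ligands, 6 were tested, 3 of which passed the filter through WT and 2 through KO libraries, so their calls are given one by one and not as a count. Fgf15, named after its values were seen, had a log2 change of 1.22 in low polysomes (adjusted p = 0.0299), which was not called without the KO library of gradient 1 (1.136, adjusted p = 0.0697). Fgf3, like Fgf4 a ligand of the same gene cluster, fell in all 3 fractions, from 17.2 ± 3.49 to 6.68 ± 2.13 CPM in high polysomes (log2 change -1.35, adjusted p = 7.71e-05). Fgf10, a ligand known from limb and lung budding, went from 4.88 ± 1.75 to 0.263 ± 0.237 CPM in high polysomes. Its WT mean was 5.6-fold the mean KO floor there and 10.5-fold that of low polysomes. Fgf21, an endocrine ligand, had a WT mean 2.73-fold the mean KO floor in high polysomes, where KO libraries held 0 reads against 21 in WT. Fgf22 fell in high polysomes (log2 change -1.32, adjusted p = 0.0259) and low polysomes (-1.71, adjusted p = 0.000157). The low polysome values of Fgf4 overlapped between genotypes, as given above.

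Among receptors, Fgfr1 was accompanied by Fgfrl1, which binds FGF without a kinase domain and rose in all 3 fractions (from 68.4 ± 5.86 to 155 ± 2.74 CPM in high polysomes, log2 change 1.17, adjusted p = 3.49e-10). Fgfr3 held 3.07 ± 0.470 CPM in WT high polysomes, 3.52-fold the mean KO floor there, and in low polysomes its WT mean was 3.42-fold the KO floor. The fitted log2 changes were -2.075 (95% interval -3.23 to -0.92) in high and -1.97 (-3.095 to -0.84) in low polysomes. Fgfr4 fell in high polysomes from 2.68 ± 0.444 CPM in WT (log2 change -1.80, adjusted p = 0.0162). Its call in low polysomes (-1.82, adjusted p = 0.0137) was lost without the KO library of gradient 1 (-1.37, adjusted p = 0.0804). Fgfr3 and Fgfr4 reached the filter level in 0 KO libraries. Fgfr1 exceeded Fgfr2, Fgfr3 and Fgfr4 by its level in every group.

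Of the 31 adaptors and RAS to ERK kinases, 30 were tested, and in high polysomes 7 were called lower and 2 higher, against 17.9% and 15.1% of all genes. Frs3, a docking protein of FGF receptors, went from 43.4 ± 12.1 to 9.05 ± 2.08 CPM in monosomes (log2 change -2.24, adjusted p = 2.29e-06) and fell in high polysomes (-3.31, adjusted p = 0.00155). Its call in low polysomes (-2.27, adjusted p = 0.00807) was lost without the KO library of gradient 1 (-0.95, adjusted p = 0.152). Hras fell in all 3 fractions (high polysomes -1.59, adjusted p = 1.48e-05), as did Rasa3, a RAS GTPase-activating protein (-2.41, adjusted p = 3.16e-06). In low polysomes, the KO library of gradient 1 held 5.53 CPM of Rasa3 and overlapped the lowest WT library at 5.29 CPM. Ptpn11, the phosphatase SHP2, fell in high polysomes (-1.30, adjusted p = 1.22e-09) and monosomes (-1.003, adjusted p = 0.000255). Ksr1, a scaffold of RAF, MEK and ERK, rose in high polysomes (1.77, adjusted p = 1.9e-10) and monosomes (1.201, adjusted p = 0.000316).

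In that list, the translation level fell for the adaptor Grb2 (-1.33, adjusted p = 3.66e-05) and the RAS gene Nras (-1.10, adjusted p = 3.84e-05). Grb2 is named after its values were seen, since it came after the 8 genes that the naming rule takes from this list. Rasa2, another RAS GTPase-activating protein, gained translation level (1.47, adjusted p = 0.0013), and its high polysome level was 10.5 ± 2.51 CPM in WT cells and 39.8 ± 1.87 CPM in KO cells. The median of this list in high polysomes was -0.01, beside -0.08 over all genes. Changes in translation level of listed genes, here and below, are given without subtracting the CDS-length median. That median ran from -0.94 in the tenth with the shortest CDS to 0.62 in the tenth with the longest. The part of CDS length in these changes was not tested.

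Of the other negative feedback regulators, 13 of 16 were tested, and in high polysomes 4 were called lower and 1 higher, against 17.9% and 15.1% of all genes. Dusp9, an ERK phosphatase with high expression in ESCs, fell in all 3 fractions, from 65.3 ± 12.6 to 7.36 ± 2.83 CPM in high polysomes (log2 change -3.20, adjusted p = 6.72e-13). Spry1, the third Sprouty gene in the table, fell in all 3 fractions (-1.86 in high polysomes, adjusted p = 0.0136). Its level was low, at 2.98 ± 1.49 CPM in WT high polysomes, and the genotypes overlapped in both polysome fractions. Dusp7 fell in high polysomes (-1.18, adjusted p = 0.00431) and in translation level (-1.34, adjusted p = 0.05, just under the threshold before rounding). Il17rd, the membrane inhibitor also called Sef, rose from 72.5 ± 1.44 to 262 ± 17.3 CPM in high polysomes (1.85, adjusted p = 2.8e-16), rose in low polysomes and gained translation level (1.06, adjusted p = 8.51e-05).

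Of 24 further transcription factors and early response genes, 18 were tested, and in high polysomes 3 were called higher and 2 lower, near the 15.1% and 17.9% of all genes. Elk3 and Elk4, ternary complex factors that ERK phosphorylates, rose in high polysomes (1.17, adjusted p = 0.00229, and 1.74, adjusted p = 6.47e-05) and low polysomes. Elk3 rose in monosomes as well (1.177, adjusted p = 0.00411). The related Elk1, named after its values were seen, fell in low polysomes (-1.24, adjusted p = 1.11e-10). It was not called in high polysomes (-0.33, adjusted p = 0.0541). Ier3, an early response gene, fell in high polysomes (-1.74, adjusted p = 1.53e-08) and monosomes (-1.197, adjusted p = 0.000146). Srf, the partner of the ternary complex factors, fell in high polysomes (-1.14, adjusted p = 1.17e-08) and in translation level (-1.02, adjusted p = 0.000532). Etv4 and Etv5, in contrast, were called in none of the 3 fractions by limma-voom or by edgeR or DESeq2.

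**Figure D4:**
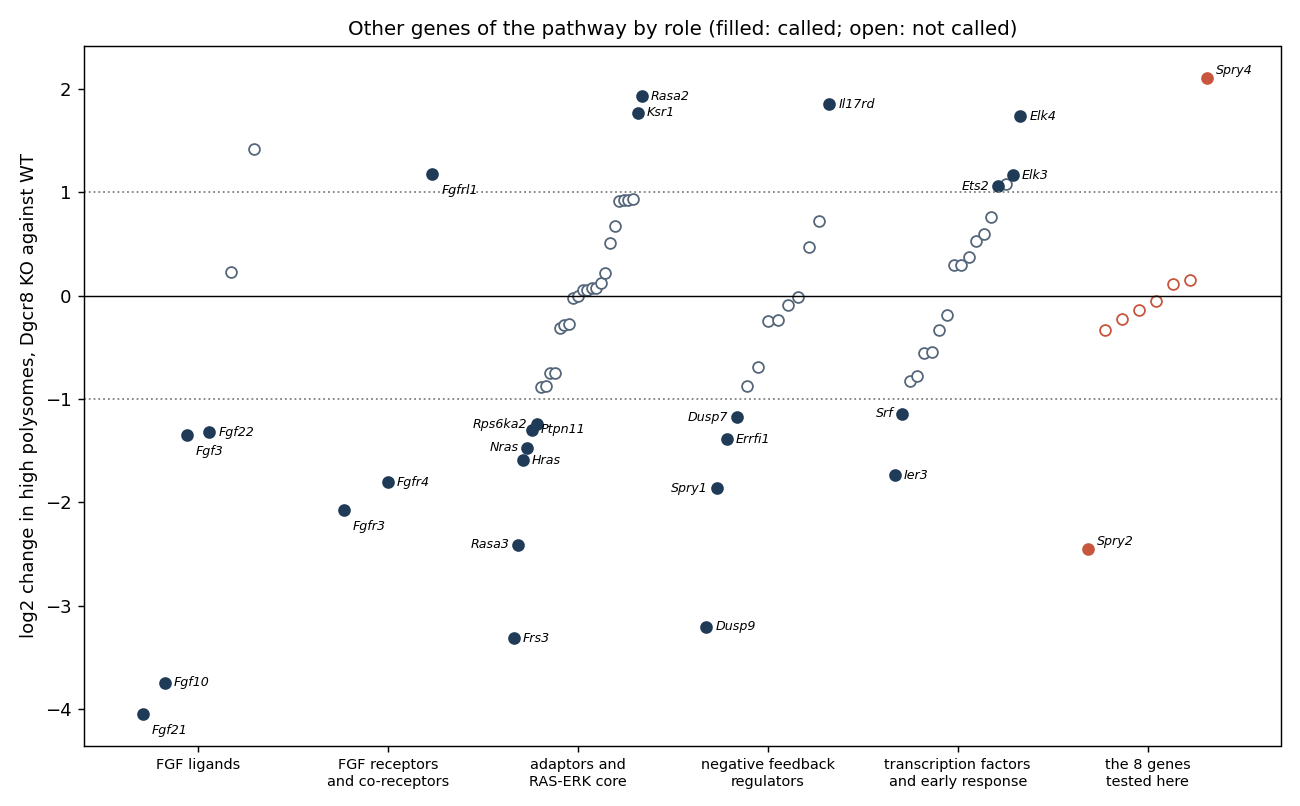
Log2 change in high polysomes, Dgcr8 KO against WT (vertical axis), for tested genes of the 5 pathway lists (dark blue) and the 8 tested members (red), each list sorted by its change, with filled points for called genes and dotted lines at a log2 change of 1. Named points range from Fgf21 and Fgf10, whose fitted values depend on the prior count since KO libraries were at or under the floor, to Spry4 at 2.11, and most members lie between the dotted lines.

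By the form of their levels over the 6 groups, each member was set beside the genes of at least 10 CPM (9021 or 9022 searched), with the root mean square difference of centred log2 group means as the measure. The nearest were Efna4 (0.03) and Ralgds (0.06) for Fgf4, Mfsd3 (0.04) and Gemin5 (0.06) for Fgfr1, and Gpd1l (0.07) and Xpot (0.10) for Etv5. For Etv4 they were Ttl (0.09) and Ccny (0.11), and for Dusp6 Rbmxl1 (0.13) and Impact (0.14). Spry2 had no neighbour as close, with Fam204a (0.15) and 4921524J17Rik (0.15), and the low-count genes Fgfr2 (Nsmce3, 0.17, and Arl13b, 0.17) and Spry4 (Tbc1d25, 0.18, and Sall3, 0.27) were the farthest from theirs. With 6 group means, these distances are a description.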

How the data were processed

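The authors deposited 1 table of raw counts, with a gene in each line and a library in each column. Per the labels and the study's methods, the authors made them from QuantSeq 3′ FWD libraries with cutadapt 1.14, STAR 2.5.3a (mm10, uniquely aligned reads) and featureCounts 1.5.3 on the strand of the gene, over GENCODE M14 basic exons. No molecular identifiers were stated, so floors cover counting error only. The 95% intervals of log2 changes rest on the spread between libraries. A deposited column of exonic bases per gene, of unit other, was used as annotation. The 92 spike-in entries (0.000522 to 0.00215% of reads) were left out. Symbols, CDS and 3′ UTRs came from GENCODE M21 (GRCm38, 51274 genes matched).

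Counts of genes with 3 CPM in at least 3 libraries were fitted with limma-voom (limma 3.58.1, R 4.3.3, TMM factors), with 1 mean for each of 6 groups and no block, two-sided. edgeR 4.0.16 and DESeq2 1.42.0 were alternatives. CPM in the text are counts over the library's tested counts times its TMM factor, and ratios per gradient used a prior count of 2. The floor was 3 counts per library. The fit was tested on simulated data.

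All members are named. Of 93 listed genes, those called one way in at least 2 fractions, or called for translation level, are named, at most 8 per list by change in high polysomes. A listed gene is counted but not reported here by name or value. The members and lists were chosen with earlier results of these data known. The fractions of 1 number come from 1 gradient. Deviations from group means correlated by 0.033 to 0.245 between them, and by -0.013 to 0.193 between genotypes of 1 number, of which 4 of 9 pairs exceeded 0.1. These include all 3 pairs of high polysomes (0.129 to 0.162) and number 2 of low polysomes (0.193). Genotypes of unlike number reached 0.115. The labels state no pairing of genotypes, so these weak correlations do not settle whether the numbers pair them.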

Additional observations from a re-analysis of the deposited data

Results flagged for a closer look

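Genotypes differed in the change between fractions, by the interaction term of limma-voom, for the genes of the cascade given here. Spry2, the only one of the 9 members, had a change in high polysome to monosome ratio of -1.56. Listed genes with a lower ratio in KO cells included Dusp7 (-1.34), Grb2 (-1.33), Nras (-1.10) and Srf (-1.02), and those with a higher one were Rasa2 (1.47) and Il17rd (1.06). The low polysome to monosome ratio was lower for Elk1 (-1.35) and Hras (-1.06). All values are log2 changes of KO against WT beyond 1 either way with an adjusted p below 0.05. The CDS-length median was not subtracted from them.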

How the results depend on the processing

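Of 819 recomputed log2 changes of the 8 tested members, 811 stayed on the same side of the threshold, 6 gained and 2 lost a call, and no called value changed direction; 45 uncalled values changed sign. In monosomes, no fold threshold gave 2 called members (Fgf4, Spry2) against 0, and leaving out a gradient gave 0 to 1 (Spry4 without KO gradient 3, log2 change 2.07). In low polysomes, no filter (with Egr1), edgeR (with Spry4) and no fold threshold (with Etv4) each gave 2 against 1, and leaving out a gradient gave 1 to 2 (with Spry4 without KO gradient 2, or Dusp6 without KO gradient 3). In high polysomes, the stricter filter of 10 CPM gave 1 against 2, as it removed Spry4, and leaving out a gradient gave 1 to 2. For the low polysome to monosome ratio, no filter (Egr1) and no fold threshold (Etv4) each gave 1 against 0, and leaving out a gradient gave 0 to 1. For the WT high polysome to monosome ratio, no fold threshold gave 4 against 1. Egr1 without a filter rests on 20 reads of the low polysome library of KO gradient 1, whose removal was chosen after seeing the data. Other causes were not tested.

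The replicate block by number or by gradient changed no call among the members, high polysomes included, and Spry2 kept its change in translation level at -1.55 and -1.54. Across all alternatives this change lay between -1.89 and -1.22. Scaling by total counts moved the median change in translation level of all genes to -0.32, beside 0.01. The prior count of 0.5 in place of 2 moved the mean difference between genotypes of the ratio for Spry2 from -1.52 to -1.54 and for Fgfr2 from 0.49 to 1.05. Depth limits Fgfr2, Spry4, Dusp6 and Egr1, with at most 35 reads in a library.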
